A study of Mus musculus with 20 samples.

Results

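The interaction described here is the part of the response to a Cre adenovirus that differed between cardiac fibroblasts kept with and without TGFB. For each gene it is the difference Cre_TGFB minus GFP_TGFB, less the difference Cre minus GFP, on a log2 scale. A value below 0 means that the Cre effect was lower with TGFB than without it, or, read the other way, that the TGFB effect was lower with the Cre virus than with the GFP virus. The members are 16 of the 20 RNA-seq libraries of the series, 4 in each of the groups GFP, Cre, GFP_TGFB and Cre_TGFB. The remaining 4, with a Hyal2 overexpression virus, entered only the filter on low counts, the scaling of the libraries and the estimate of the spread.

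All cultures were mouse cardiac fibroblasts at passage 2 from mice with a loxP-flanked Hyal2 gene, although the genotype label reads wild type C57BL/6J. After 24 h without serum, the cells were exposed to virus for 5 h and then kept for 48 h with growth factor at 20 ng/mL. The control virus carried GFP, and the other virus carried Cre, a recombinase that cuts out DNA between loxP sites. The sample titles call the Cre cultures a knock out of Hyal2 exon 2 and the GFP cultures control. The TGFB groups received TGFB, and the wording of the labels does not settle whether the other groups received bFGF in its place. If they did, the contrast called TGFB here is TGFB against bFGF. The same 4 isolates recur in every group, isolates 1 and 2 from females and isolates 3 and 4 from males, so the interaction could be formed within each isolate. Every Cre culture differed from its control both in Hyal2 and in the virus it received, so loss of Hyal2 and exposure to Cre cannot be told apart.

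TGFB signals through receptor kinases and SMAD transcription factors, and turns resting cardiac fibroblasts into contractile, matrix-producing myofibroblasts. Hyal2 is a hyaluronidase anchored at the cell surface, where it cuts long chains of hyaluronan, the glycosaminoglycan that surrounds fibroblasts. Interferon-stimulated genes, which turned out to hold most of the larger interaction values, are switched on when interferon receptors are engaged, and their products sense and restrict viruses.

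Library totals ranged from 41.9 to 71.0 M counts in GFP, 41.4 to 104.8 M in Cre, 38.6 to 72.2 M in GFP_TGFB and 40.2 to 81.2 M in Cre_TGFB. The difference of differences of log2 library totals was -0.20, -0.79, 0.85 and -0.53 in isolates 1 to 4. All 12 fibroblast markers passed the filter on low counts, and their summed level was 39790 to 69030 CPM. For the marker sums, here and below, CPM are counts divided by the unscaled library total. For the levels of single genes they are counts divided by the TMM-scaled library total, unless stated otherwise. Leukocyte markers were also present, with 17 of 20 past the filter. Their sum was 263 to 633 CPM in GFP, 227 to 604 in Cre, 141 to 353 in GFP_TGFB and 136 to 342 in Cre_TGFB, and Cd3e and Cd163 had at most 2 counts in any library. Of 14 cardiomyocyte markers 4 passed, the sum did not exceed 5.45 CPM, and Pln was at 0 in every library.

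Hyal2 itself was lowered by the Cre virus in both settings. Its level was 44.5, 43.0, 40.7 and 36.6 CPM in the GFP libraries of isolates 1 to 4, and 12.3, 8.34, 13.5 and 7.62 CPM in the Cre libraries. With TGFB it was 41.1, 39.2, 33.4 and 33.7 CPM with the GFP virus, and 9.14, 7.48, 7.70 and 5.37 CPM with the Cre virus. Every Cre library lay below every GFP library, with no overlap with or without TGFB. The log2 difference was -1.98 (SE 0.28, edgeR adjusted p = 0.0184) without TGFB and -2.30 (SE 0.29, edgeR adjusted p = 0.00286) with it. Hyal2 was the only gene called in either Cre comparison, 0.0064% of the 15624 genes tested in each. The interaction of Hyal2 was -0.32 (95% interval -1.14 to 0.50), and the values within isolates were -0.32, -0.02, -0.52 and -0.38. The interval is from the fit of 20 libraries without the block. It therefore includes the spread between isolates and that of the overexpression libraries, which held 18568 to 62732 Hyal2 counts. Counts per gene hold no position within Hyal2, and the loss of the flanked segment itself was not measured. With the 16 libraries only, the edgeR adjusted p of Hyal2 was 6.64e-05 without TGFB and 9.99e-06 with it. DESeq2 gave an adjusted p of 5.28e-09 and 4.69e-13, and the replicate block in edgeR 0.012 and 0.0341. Other settings weakened the calls. With no filter on low counts the edgeR adjusted p of Hyal2 was 0.0851 without TGFB and 0.0629 with it. Both calls were also lost without isolate 1 (edgeR adjusted p = 0.465 and 0.238) and without isolate 2 (0.678 and 0.18), and the call without TGFB was lost without isolate 4 (0.146) and in limma-voom (0.0556). Leaving out 1 GFP or Cre library of isolate 1 or 2 (both without TGFB), or the Cre library of isolate 4, gave 0.0547 to 0.108 for the same call, and the log2 difference stayed between -2.08 and -1.86.

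No gene passed the test of the interaction. With edgeR's quasi-likelihood test, 0 of 15624 genes (0%) had an adjusted p under 0.05, and the smallest adjusted p was 0.9999. An unadjusted p under 0.05 was found for 397 genes (2.54%), 202 below 0 and 195 above. The isolate numbers pair the libraries, and with the replicate block the count was also 0 (0%), with a smallest adjusted p of 0.774 and 869 genes at an unadjusted p under 0.05. DESeq2 called 0 genes with 427 at an unadjusted p under 0.05, and limma-voom called 0 with 373. Leaving out isolate 2 raised the unadjusted count to 1210 and leaving out isolate 3 lowered it to 143, with 0 called in both.

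The precision of these values varied between genes. Among the 10521 genes whose highest group mean reached 5 CPM, the median half-width of the 95% interval of the interaction was 0.29, with deciles of 0.19 and 0.58. For 9943 of them (94.5%) the whole interval lay between -1 and 1. The median absolute interaction of these 10521 genes was 0.099. The whole interval lay between -1 and 1 for 11761 of all 15624 genes tested. It did so for 10 of the 49 interferon-stimulated genes described below. Such counts depend on both the width of an interval and its distance from 0. Over all genes tested, the interaction lay below 0 in 4 of 4 isolates for 1462 genes (9.36%) and above 0 in 4 of 4 for 1451 (9.29%), and these shares are the background for the counts below. All interaction values that follow missed the adjusted threshold, with an edgeR adjusted p of at least 0.9999 for each gene, and are given as values. The p-values of the fit without the block are set against the spread between these isolates, overexpression libraries included. Those with the replicate block are set against the spread left once differences between isolates are removed.

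Of the 10521 genes of at least 5 CPM, 17 had an absolute interaction of at least 1 on the log2 scale, 16 below 0 and 1 above. These genes were singled out after their values were seen. Of the 16 below 0, 12 belonged to 1 of the 3 interferon-related lists described below, namely Oas3, Cxcl10, Isg15, Nlrc5, Ifi44, Usp18, H2-Q4, Tgtp2, Dhx58, Irf7, Oasl1 and Oas1a. Together the 3 lists hold 85 of the 15624 genes tested. The 4 outside the lists were Apod, Gm12250, Oas1g and Ifi207. The lists do not hold every interferon-responsive gene, so a place outside them does not set a gene apart from that response. Apod, an apolipoprotein that carries small lipids, had the lowest value of the 17, at -1.49 (SE 0.69). Its level was 2.95, 2.34, 6.73 and 6.60 CPM in GFP and 4.50, 5.11, 17.7 and 18.02 CPM in Cre, but 0.54 to 0.79 CPM in GFP_TGFB and 0.41 to 0.61 CPM in Cre_TGFB. The Cre library was the higher one in all 4 isolates without TGFB, and the groups with TGFB overlapped. The 1 gene above 0 was Lef1, a transcription factor of Wnt signalling, at 1.93 (SE 0.75). TGFB raised it from at most 0.19 CPM to at least 4.80 CPM with either virus, and its interaction rests on libraries near 0, since it had 0 counts in the Cre libraries of isolates 1 and 3.

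**Figure D1:**
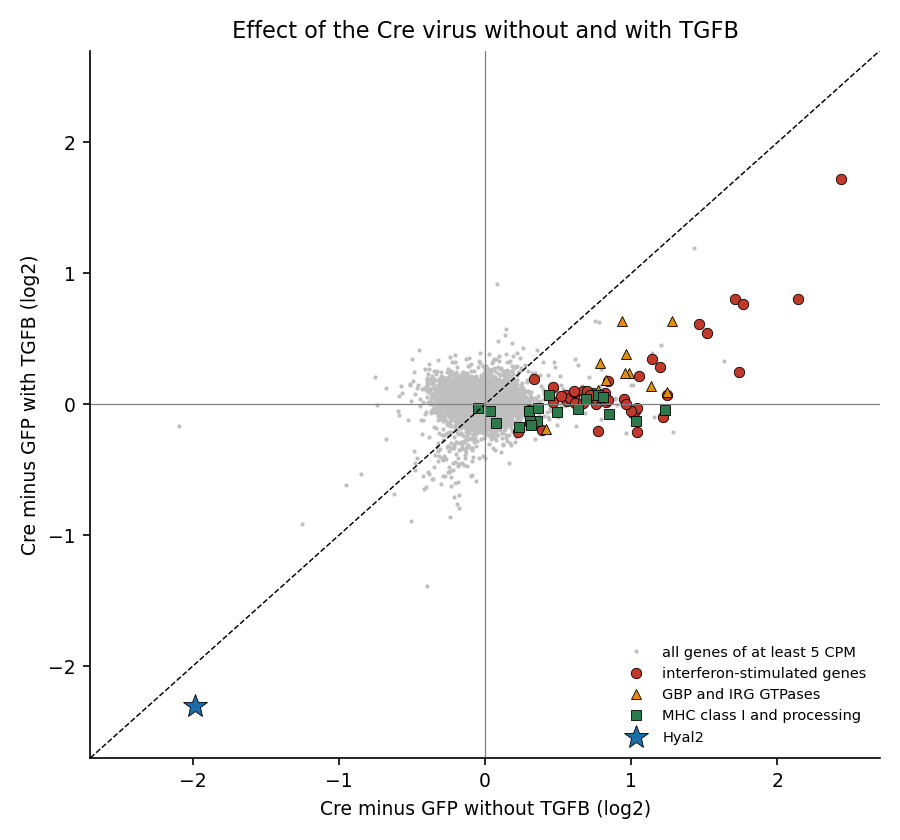
Each grey point is 1 of the 10521 genes of at least 5 CPM, with the log2 difference Cre minus GFP without TGFB on the x axis and with TGFB on the y axis, and the dashed line marks equal effects. Most members of the 3 interferon-related lists lie to the right of 0 on the x axis and near 0 on the y axis, below the line, while Hyal2 lies close to the line at -1.98 and -2.30.

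The interferon-stimulated genes, 50 antiviral effectors, sensors and their transcription factors, were the list furthest below 0 among those with more than 20 members. Of the 50, 49 passed the filter and Ifi44l did not. The interaction was below 0 for 49 of 49, from -1.49 to -0.14, with a median of -0.76 against -0.00 over all genes tested. It was below 0 in 4 of 4 isolates for 42 of the 49, against 9.36% of all genes, and above 0 in 4 of 4 for none of them. None was called by edgeR, with or without the replicate block, by DESeq2 or by limma-voom. An unadjusted p under 0.05 was found for 21 of the 49 with edgeR, against 397 of all 15624 genes (2.54%). With the replicate block it was found for 40 of the 49, against 869 of 15624. The members were measured in the same 16 libraries, so these are not counts of independent results.

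The median of the list within isolates 1 to 4 was -0.50, -0.37, -1.21 and -0.77. Its 2 parts were a Cre effect without TGFB of 0.59, 0.76, 0.95 and 0.85, and a Cre effect with TGFB of 0.11, 0.32, -0.24 and 0.07. In each isolate the first was the larger, and the second lay on both sides of 0. Without TGFB the Cre library was above the GFP library in 4 of 4 isolates for 48 of the 49 genes, against 15.9% of all genes. With TGFB this held for 6 of the 49, against 6.72%. The fit with the replicate block called 42 genes (0.269%) in the Cre comparison without TGFB, 11 of them in this list, and 0 of the list with TGFB. The test of the difference between these Cre effects is the interaction, which called 0.

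Of the 7 members not below 0 in every isolate, 6 were above 0 in isolate 2, namely Mx1, Cxcl10, Rsad2, Cmpk2, Epsti1 and Ifi27l2a. For Mx1, a GTPase that traps viral nucleocapsids, the values in isolates 1 to 4 were -0.50, 1.57, -2.91 and -0.77. For Cxcl10, a chemokine for T cells, they were -3.18, 1.49, -2.09 and -1.44. Samd9l was above 0 in isolates 1 and 4 and had the value nearest 0 of the list, -0.14. These names were taken after the values were seen. Leaving out each isolate in turn gave list medians from -0.89 without isolate 2 to -0.59 without isolate 3. Ifit3 and Ifit3b, Oas1a with its family, and the neighbours Parp9 and Dtx3l may share reads, and without these 5 the median was -0.75.

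Isg15 encodes a ubiquitin-like protein that is attached to other proteins during the interferon response. Its promoter, with that of Bst2 below, is shown because it holds close copies of the interferon-stimulated response element, a promoter sequence through which interferon switches genes on. The stretches are from RefSeq promoters on build GRCm38.p6, read 5′ to 3′ on the gene's strand and ending before the transcription start, with each match to GAAANNGAAA in capitals. The stretch of Isg15 is chr4:156200850-156200909, minus strand, with 3 overlapping matches, the last ending 56 bases before the start. The stretch of Bst2 is chr8:71537562-71537621, minus strand, with 2 overlapping matches, the last ending 114 bases before the start.
Isg15: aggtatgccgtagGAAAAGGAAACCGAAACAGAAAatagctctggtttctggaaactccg
Bst2: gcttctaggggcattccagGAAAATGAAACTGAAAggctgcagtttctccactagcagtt

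The motif was searched on both strands, overlaps counted, from 250 bases before to 50 bases after each start. Promoter sequences were found for 36 of the 49 interferon-stimulated genes, and 15 of these genes (41.7%) held the motif. Among all genes tested with a promoter, 431 of 11223 (3.84%) held it, and 1131 of all 32851 promoters (3.44%) did. No match was found in the promoter windows of Ifi35 and Lgals3bp. A match describes these letters and does not show binding.

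Isg15 was at 137, 166, 153 and 217 CPM in GFP and 275, 387, 433 and 471 CPM in Cre, so that every Cre library lay above every GFP library. In the presence of TGFB its level was 109, 121, 185 and 175 CPM in GFP_TGFB and 111, 182, 107 and 150 CPM in Cre_TGFB, and these groups overlapped. The interaction was -1.32 (SE 0.39, 95% interval -2.13 to -0.51). Within isolates it was -0.99, -0.63, -2.28 and -1.33. TGFB lowered Isg15 with the Cre virus, by a log2 difference of -1.51 (edgeR adjusted p = 0.000131), and with the GFP virus the difference was -0.19 (edgeR adjusted p = 0.573).

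Ifi35, which takes part in interferon signalling, was at 42.0, 46.7, 49.8 and 57.4 CPM in GFP and 62.3, 76.5, 92.3 and 101 CPM in Cre. After TGFB it stood at 32.6, 32.4, 38.9 and 38.9 CPM with the GFP virus and 32.5, 41.8, 31.2 and 37.6 CPM with the Cre virus. The Cre groups were apart without TGFB and overlapped with it, and the interaction was -0.76 (SE 0.23).

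Tor3a, an interferon-responsive ATPase of the endoplasmic reticulum, was at 76.2, 81.6, 102 and 126 CPM in GFP and 127, 148, 219 and 259 CPM in Cre. Its levels with TGFB were 58.3, 55.4, 76.9 and 63.8 CPM in GFP_TGFB and 59.7, 65.1, 61.5 and 68.0 CPM in Cre_TGFB. Its interaction was -0.97 (SE 0.32). Ccl5, a chemokine for T cells and monocytes, had few counts, with 0.99 to 1.62 CPM in GFP, 2.80 to 4.77 CPM in Cre, 0.46 to 0.61 CPM in GFP_TGFB and 0.21 to 0.74 CPM in Cre_TGFB. Its interaction was -1.34 (SE 0.43), below 0 in 4 of 4 isolates.

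Bst2, or tetherin, holds budding virus at the cell surface. It was at 225, 278, 262 and 290 CPM in GFP and 316, 456, 511 and 520 CPM in Cre, with no overlap. Its levels with TGFB were 142, 175, 201 and 184 CPM with the GFP virus and 138, 230, 108 and 134 CPM with the Cre virus, and its interaction was -0.98 (SE 0.35). Ifitm3, a membrane protein that hinders virus entry, showed smaller differences, from 685 to 873 CPM in GFP, 806 to 1174 CPM in Cre, 360 to 449 CPM in GFP_TGFB and 326 to 443 CPM in Cre_TGFB. Its interaction was -0.49 (SE 0.20), with 4 of 4 isolates below 0, and the groups overlapped both without and with TGFB.

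**Figure D2:**
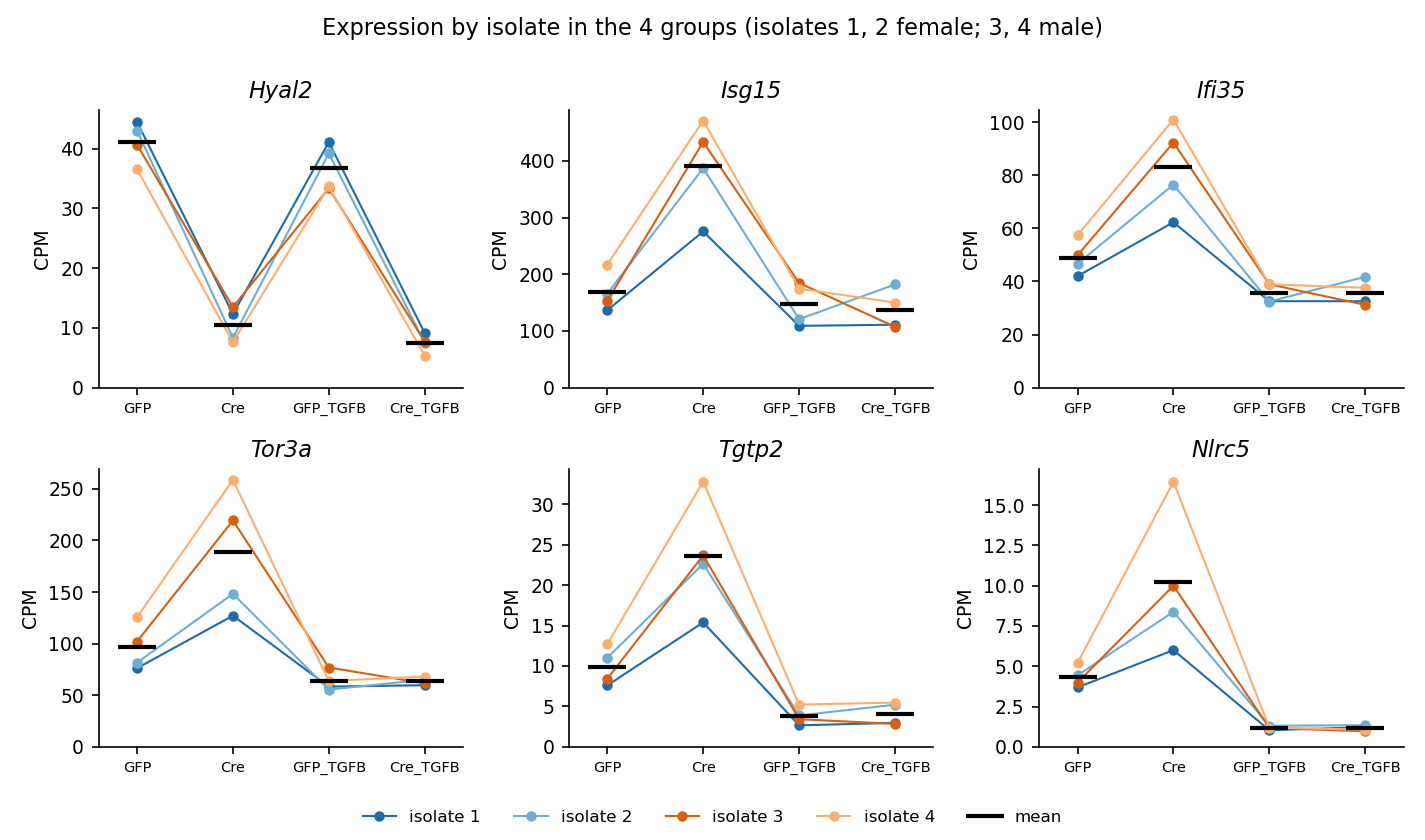
Expression in CPM (y axis, from 0) in the groups GFP, Cre, GFP_TGFB and Cre_TGFB (x axis), with 1 line for each of the 4 isolates and a black bar for the group mean. Hyal2 is low with the Cre virus in both settings, while Isg15, Ifi35, Tor3a, Tgtp2 and Nlrc5 are highest in Cre and nearly level between GFP_TGFB and Cre_TGFB.

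TGFB lowered most of these genes with either virus. Of the 49, 40 fell with TGFB in the GFP arm, where 28.6% of all genes fell and 26.6% rose, and 49 fell in the Cre arm, where 29% fell and 27.5% rose. The median TGFB effect was -0.98 with the GFP virus and -1.73 with the Cre virus, both on the log2 scale. These comparisons use the same 16 libraries as the interaction and restate it from the side of TGFB. The leukocyte markers, whose sum was also lower with TGFB, had a median interaction of 0.00 with 3 of 17 below 0 and 1 above 0 in 4 of 4 isolates. The part of leukocyte RNA in the interferon values was not tested. The summed level of the 13 endothelial markers was 625 to 775 CPM in GFP and 789 to 844 CPM in Cre, without overlap, and 666 to 796 CPM in GFP_TGFB and 658 to 780 CPM in Cre_TGFB, which overlapped. This sum mainly follows 1 gene, Eng. On the same unscaled totals Eng reached 791 CPM, and the next highest marker, Tek, reached 26.8 CPM. The median interaction of the 13 genes was 0.04, with 0 below 0 and 2 above 0 in 4 of 4 isolates. The part of endothelial RNA in the interferon values was not tested. The part of library depth, whose difference of differences is given above, was not tested.

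The interferon-inducible GTPases of the GBP and IRG families, which attack the membranes around intracellular pathogens, had values of the same kind. All 16 passed the filter, with a median interaction of -0.65, 12 of 16 below 0 in 4 of 4 isolates and 1, Gbp8, above 0. None was called. Tgtp2, an IRG family GTPase, was at 7.60, 11.01, 8.42 and 12.7 CPM in GFP and 15.4, 22.6, 23.7 and 32.8 CPM in Cre, without overlap. In the TGFB groups it was 2.66 to 5.23 CPM with the GFP virus and 2.83 to 5.47 CPM with the Cre virus, and the interaction was -1.15 (SE 0.46). Tgtp2 and Tgtp1 are near-identical copies, so their counts may be shared.

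Igtp, another IRG GTPase, was at 27.6, 34.5, 33.99 and 49.7 CPM in GFP and 49.9, 69.4, 87.5 and 114 CPM in Cre, and at 9.89 to 16.8 CPM in the 8 libraries with TGFB. Its interaction was -0.995 (SE 0.42). Irgm1, a regulator of the IRG GTPases, was at 143, 221, 128 and 162 CPM in GFP, 202, 323, 233 and 308 CPM in Cre, 265 to 329 CPM in GFP_TGFB and 283 to 365 CPM in Cre_TGFB. It was the 1 gene of the 16 that rose with TGFB in the GFP arm, by 0.89 (edgeR adjusted p = 0.00374), and its interaction was -0.66 (SE 0.33). Gvin1 was at 4.01 to 5.78 CPM in GFP, 5.23 to 7.71 CPM in Cre, 4.73 to 5.47 CPM in GFP_TGFB and 4.21 to 4.87 CPM in Cre_TGFB, with an interaction of -0.60 (SE 0.28). Gbp10 had 0 counts in all 8 libraries with TGFB, so the size of its fitted value has no meaning here, and the median of the other 15 was -0.64.

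The list of MHC class I and antigen processing genes, which load peptides for display to T cells, had a median interaction of -0.48 over 20 of 20 members. It was below 0 in 4 of 4 isolates for 15 of 20 and above 0 in 4 of 4 for none, and none was called. Nlrc5, the transactivator of MHC class I genes, was at 3.69, 4.43, 3.99 and 5.199 CPM in GFP and 6.00, 8.38, 9.99 and 16.4 CPM in Cre, without overlap. In the TGFB groups it was 1.03 to 1.30 CPM with the GFP virus and 0.96 to 1.34 CPM with the Cre virus, and its interaction was -1.28 (SE 0.42).

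H2-Q4, a nonclassical class I chain whose reads may be shared with other H2-Q genes, was at 28.2 to 40.9 CPM in GFP, 41.6 to 99.0 CPM in Cre, 3.90 to 5.74 CPM in GFP_TGFB and 3.26 to 5.88 CPM in Cre_TGFB. The interaction was -1.16 (SE 0.40). The immunoproteasome subunits Psmb8 and Psmb10, which cut proteins into such peptides, had interactions of -0.92 (SE 0.33) and -0.67 (SE 0.23), each below 0 in 4 of 4 isolates. B2m, the light chain shared by class I molecules, had -0.22 (SE 0.18), and its level was 809 to 1001 CPM in GFP and 836 to 1087 CPM in Cre, which overlapped. Within isolates the list's median was -0.34, -0.14, -0.78 and -0.74.

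**Figure D3:**
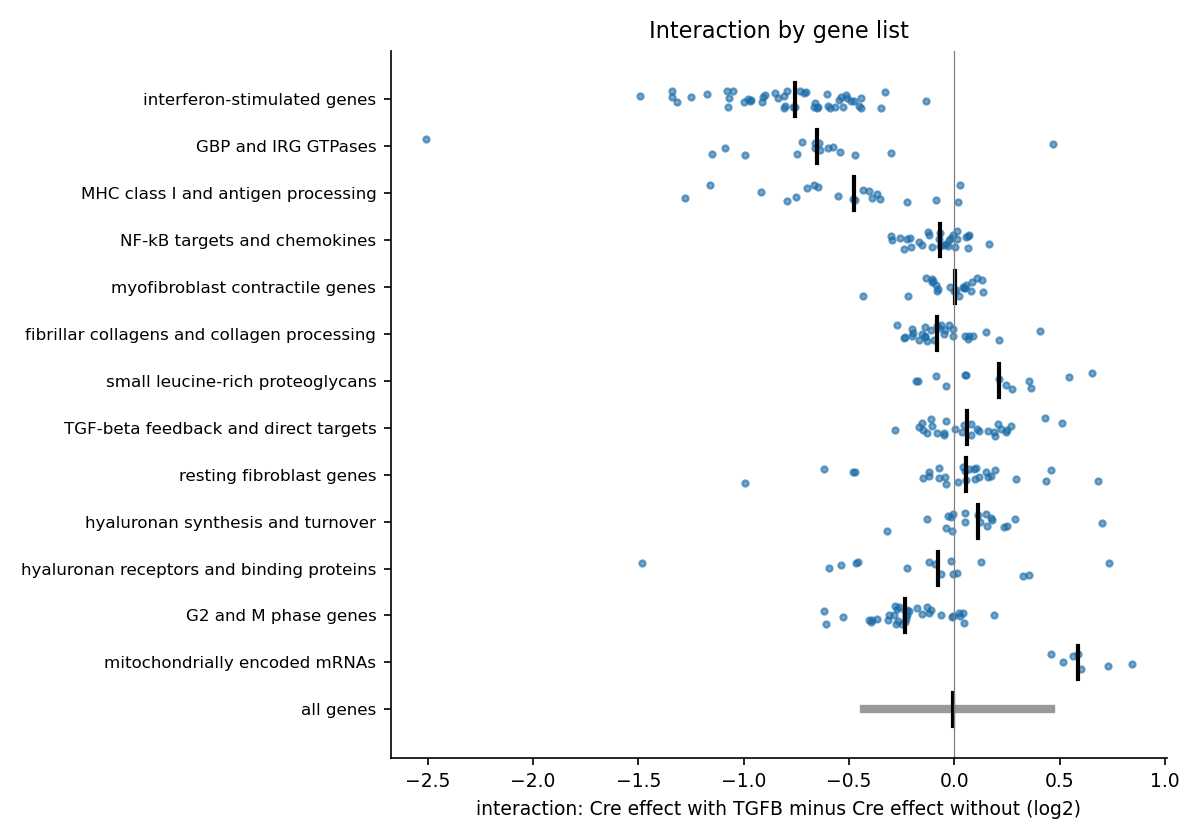
Interaction on the log2 scale (x axis) for each tested member of 13 gene lists (y axis, 1 point a gene), with a black bar at the list's median, and for all genes a bar from the 5th to the 95th percentile. The 3 interferon-related lists lie lowest, at medians of -0.76, -0.65 and -0.48, and the mitochondrially encoded mRNAs highest, at 0.59.

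Genes outside these lists that the naming rule picked had smaller values. With the smallest p among genes below 0 in every isolate, Slc25a22, a mitochondrial glutamate carrier, was at 18.4, 19.1, 19.3 and 19.3 CPM in GFP and 24.2, 24.1, 26.9 and 29.9 CPM in Cre, without overlap. In the TGFB groups it was 23.8 to 25.4 CPM with the GFP virus and 22.1 to 25.7 CPM with the Cre virus, and the interaction was -0.48 (SE 0.11). Mov10, an RNA helicase that restricts viruses, had -0.51 (SE 0.17), with 55.2 to 63.1 CPM in GFP, 69.3 to 99.2 CPM in Cre, 39.7 to 44.3 CPM in GFP_TGFB and 34.5 to 48.4 CPM in Cre_TGFB. Ogfr, the opioid growth factor receptor, had -0.48 (SE 0.14), Dhx37, a helicase of ribosome assembly, -0.39 (SE 0.13), Pttg1, or securin, -0.32 (SE 0.11), and Pelp1, a nuclear receptor coregulator, -0.27 (SE 0.08). All these genes had a higher mean in Cre than in GFP and means within 0.10 log2 units of each other with TGFB, from -0.10 for Pelp1 to -0.02 for Slc25a22.

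Above 0, the same rule named Hykk, Ift80, Vash2, Trim23, Map7d3, Stk17b, Kctd12b and Crlf3, each above 0 in 4 of 4 isolates. Hykk, a hydroxylysine kinase, was at 10.2, 11.2, 11.5 and 12.5 CPM in GFP, 9.74, 8.47, 9.17 and 10.9 CPM in Cre, 7.40, 8.94, 7.27 and 7.37 CPM in GFP_TGFB and 8.86, 8.68, 10.2 and 8.92 CPM in Cre_TGFB, and the groups overlapped in both settings. Its interaction was 0.48 (SE 0.15). Vash2, a tubulin carboxypeptidase, was at 9.02 to 9.39 CPM in GFP and 7.55 to 8.10 CPM in Cre, without overlap, and at 12.8 to 14.9 CPM in GFP_TGFB and 13.5 to 15.4 CPM in Cre_TGFB. Its interaction was 0.31 (SE 0.10). The others ranged from 0.21 (SE 0.08) for Crlf3 to 0.87 (SE 0.31) for Kctd12b, which was at 6.00 ± 1.75 CPM in GFP, 4.39 ± 0.91 in Cre, 1.65 ± 0.42 in GFP_TGFB and 2.21 ± 0.54 in Cre_TGFB (mean ± SD, n = 4).

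The NF-kB targets and chemokines, inflammatory genes driven by another transcription factor family, had a median of -0.07, with 3 of 29 tested below 0 and 2 above 0 in 4 of 4 isolates. Ccl2, a monocyte chemokine, had -0.29 (SE 0.23), with 16.3 to 20.4 CPM in GFP, 21.02 to 28.9 CPM in Cre, 4.86 to 8.26 CPM in GFP_TGFB and 6.01 to 9.33 CPM in Cre_TGFB. The groups did not overlap without TGFB and overlapped with it. Tnfaip3, a deubiquitinase that restrains NF-kB, had -0.26 (SE 0.13) and rose with TGFB with both viruses, by 2.44 (edgeR adjusted p = 4.17e-13) with GFP and by 2.18 (edgeR adjusted p = 1.68e-12) with Cre. Csf1, a macrophage growth factor, had -0.17 (SE 0.10).

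The contractile genes, which give myofibroblasts their pull, mostly rose with TGFB. Of 22 members 18 rose and 1 fell with the GFP virus, against 26.6% and 28.6% of all genes. With the Cre virus 19 rose and 1 fell, against 27.5% and 29%. The median TGFB effects were 0.97 with the GFP virus and 0.95 with the Cre virus. The median interaction was 0.00, with 1 of 22, Myh9, below 0 in 4 of 4 isolates and none above. Acta2, the smooth muscle actin that marks myofibroblasts, was at 1134, 851, 557 and 932 CPM in GFP and 1124, 917, 518 and 880 CPM in Cre. With TGFB it was 4011, 3268, 3445 and 4205 CPM with the GFP virus and 3909, 3670, 3314 and 3969 CPM with the Cre virus. The interaction was 0.01 (SE 0.32, 95% interval -0.66 to 0.68) in the fit without the block, whose interval includes the spread between isolates. Within isolates its values were closer together, at -0.02, 0.06, 0.05 and 0.00. Myh9, a nonmuscle myosin heavy chain, had -0.11 (95% interval -0.31 to 0.10).

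Among 29 genes of fibrillar collagens and their processing, 11 rose and 10 fell with TGFB with the GFP virus. With the Cre virus 10 rose and 11 fell. Over all genes 26.6% rose and 28.6% fell with the GFP virus, and 27.5% rose and 29% fell with the Cre virus. The median interaction was -0.08, with 7 below 0 and 3 above 0 in 4 of 4 isolates. Col1a1, the main chain of type I collagen, was at 10530, 8463, 12785 and 12168 CPM in GFP, 11917, 9173, 13273 and 14236 CPM in Cre, 18633, 16153, 20586 and 20938 CPM in GFP_TGFB and 18014, 17384, 18113 and 20251 CPM in Cre_TGFB. TGFB raised it by 0.80 (edgeR adjusted p = 0.000257) with the GFP virus and by 0.60 (edgeR adjusted p = 0.00284) with the Cre virus, and the interaction was -0.19 (SE 0.22, 95% interval -0.65 to 0.27). Plod3, a lysyl hydroxylase of collagen, had the smallest p of the list, with -0.27 (SE 0.11) and a level of 507 to 611 CPM in GFP, 626 to 671 CPM in Cre, 648 to 735 CPM in GFP_TGFB and 605 to 702 CPM in Cre_TGFB.

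The TGF-beta feedback genes and direct targets had a median interaction of 0.06, with 3 of 28 below 0 and 4 above 0 in 4 of 4 isolates. Of the 28, 15 rose and 11 fell with TGFB with the GFP virus, against 26.6% and 28.6% of all genes. With the Cre virus 14 rose and 11 fell, against 27.5% and 29%. Tgfbr1, the type I receptor kinase, had the smallest p, with 0.43 (SE 0.17). It was at 40.4, 44.4, 43.5 and 52.9 CPM in GFP, 33.7, 34.9, 41.2 and 38.4 CPM in Cre, 58.1, 62.2, 64.0 and 60.7 CPM in GFP_TGFB and 66.1, 55.0, 82.7 and 65.5 CPM in Cre_TGFB. The Cre library was below the GFP library in all 4 isolates without TGFB, and above it in 3 of 4 with TGFB. Smad7, which blocks the receptor, had -0.15 (SE 0.09), and Smurf2, a ubiquitin ligase that acts with it, 0.19 (SE 0.12).

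Resting fibroblast genes fell with TGFB in both arms, 25 of 28 with each virus. Of all genes 28.6% fell with the GFP virus and 29% with the Cre virus. The median effects of TGFB on the list were -3.28 and -3.19. The median interaction was 0.05, with 3 below 0 and 6 above 0 in 4 of 4 isolates. Pdgfra, a growth factor receptor of resting fibroblasts, was at 958 to 1058 CPM in GFP, 881 to 1070 CPM in Cre, 146 to 169 CPM in GFP_TGFB and 158 to 173 CPM in Cre_TGFB, with an interaction of 0.17 (95% interval -0.04 to 0.38). Ly6a, a surface marker of progenitor-like fibroblasts that interferon is also known to raise, was at 178 to 317 CPM in GFP and 264 to 533 CPM in Cre, but 1.59 to 3.96 CPM in GFP_TGFB and 1.63 to 4.01 CPM in Cre_TGFB, and its interaction was -0.62 (SE 0.46).

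The small leucine-rich proteoglycans and versican group, which decorate collagen fibres and bind hyaluronan, had a median interaction of 0.21, and of 0.096 with the replicate block. Within isolates it was 0.12, -0.06, 0.40 and 0.48, with isolate 2 on the other side of 0, and it was 0.11 without isolate 1, 0.36 without isolate 2 and 0.072 without isolate 4. Of 13 tested members none was below 0 and 4 were above 0 in 4 of 4 isolates, namely Dcn, Vcan, Lum and Prelp. Vcan, the hyaluronan-binding proteoglycan versican, was at 630, 632, 614 and 702 CPM in GFP, 564, 496.04, 613 and 674 CPM in Cre, 349, 434, 357 and 348 CPM in GFP_TGFB and 398, 378, 490 and 467 CPM in Cre_TGFB. Its interaction was 0.36 (SE 0.17), and the groups overlapped in both settings. Lum, or lumican, had 0.36 (SE 0.22).

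In the pathway of Hyal2 itself, hyaluronan synthesis and turnover, 19 of 20 genes were tested, with 1 below 0, Hyal2, and 3 above 0 in 4 of 4 isolates. The median was 0.11, and from 0.04 to 0.16 when 1 isolate was left out. Within isolates 1 to 4 it was 0.04, 0.03, 0.07 and 0.05. Of the synthases, Has2, the main one of fibroblasts, was at 38.3, 62.1, 29.3 and 33.5 CPM in GFP, 34.96, 54.1, 30.5 and 33.4 CPM in Cre, 30.6, 40.9, 28.5 and 34.1 CPM in GFP_TGFB and 30.1, 34.3, 40.3 and 35.5 CPM in Cre_TGFB. All 4 groups overlapped, and the interaction was 0.16 (95% interval -0.63 to 0.94). Has1 had 0.25 (95% interval -1.62 to 2.11), and Has3, at 0.14 to 0.40 CPM, had 0.70 (95% interval -0.20 to 1.59).

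Of the other enzymes that cut hyaluronan, Hyal1, which acts in lysosomes, was at 9.35, 7.72, 10.7 and 10.0 CPM in GFP and 10.5, 8.04, 12.5 and 12.1 CPM in Cre. With TGFB it was 6.64, 6.20, 6.73 and 6.42 CPM with the GFP virus and 9.24, 8.94, 8.41 and 9.41 CPM with the Cre virus. Hyal1 was higher in the Cre library of every isolate, without overlap with TGFB and with overlap without it, and the interaction was 0.29 (SE 0.19, 95% interval -0.12 to 0.69). Hyal3, at 0.17 to 0.36 CPM and with reads that may be shared with Naa80, had 0.18 (SE 0.38).

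Cemip and Cemip2, which take part in hyaluronan breakdown outside the classical hyaluronidases, had 0.17 (SE 0.37) and 0.24 (SE 0.13). Of the exoglycosidases that finish the digestion, Hexa had -0.13 and Gusb -0.03. The genes that supply sugar precursors, Ugdh, Ugp2, Uap1, Gfpt1, Gfpt2, Gnpnat1, Pgm3 and the transporter Slc35d1, lay from -0.04 to 0.15. Of these, the sign for Gusb, Uap1, Gfpt2, Gnpnat1 and Pgm3, and that for Hyal3, turned when 1 isolate was left out.

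Of 16 tested hyaluronan receptors and binding proteins, 4 were below 0 and 1, Vcan, above 0 in 4 of 4 isolates, with a median of -0.08. Cd44, the main receptor, rose with TGFB by 1.35 (edgeR adjusted p = 2.68e-06) with the GFP virus and by 1.36 (edgeR adjusted p = 2.42e-06) with the Cre virus. Its interaction was 0.01 (95% interval -0.50 to 0.52). Ptx3, which crosslinks hyaluronan matrices, had -0.47 (SE 0.28), with 241 to 384 CPM in GFP, 281 to 470 CPM in Cre, 17.2 to 26.8 CPM in GFP_TGFB and 16.3 to 21.6 CPM in Cre_TGFB. Tlr4, an innate immune receptor that hyaluronan fragments are reported to engage, had 0.33 (SE 0.21), and Hapln4 had -0.59 (SE 0.35).

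**Figure D4:**
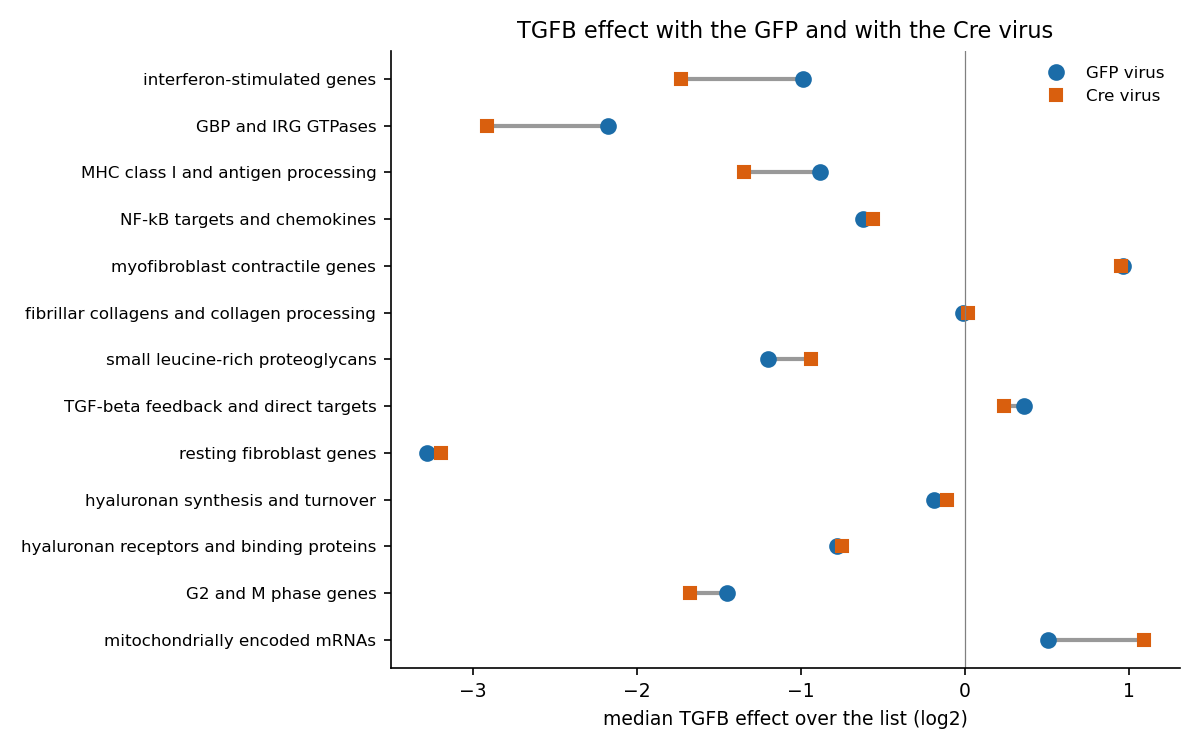
Median TGFB effect on the log2 scale (x axis) over the tested members of 13 gene lists (y axis), with a circle for the GFP virus and a square for the Cre virus. The points nearly coincide for the contractile genes at 0.97 and 0.95, and lie apart for the interferon-stimulated genes at -0.98 and -1.73.

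Genes of G2 and M phase, which serve the division of chromosomes, fell with TGFB in 35 of 36 cases with the GFP virus. With the Cre virus 36 of 36 fell. The shares of all genes that fell were 28.6% and 29%. The list's median interaction was -0.23, with 12 of 36 below 0 in 4 of 4 isolates and none above. The median within isolates was -0.11, -0.14, -0.01 and -0.72, so isolate 4 lay apart from the others, and the median without it was -0.11. Without TGFB the Cre library was below the GFP library in 4 of 4 isolates for 14 of the 36, against 13.2% of all genes, and with TGFB for 27, against 6.91%. Kif2c, a motor protein that trims microtubules, was at 10.6, 14.04, 8.45 and 5.81 CPM in GFP, 8.02, 10.8, 6.40 and 7.75 CPM in Cre, 2.82, 4.06, 2.58 and 2.56 CPM in GFP_TGFB and 1.80, 2.30, 1.48 and 1.09 CPM in Cre_TGFB. With TGFB every Cre library lay below every GFP library, and the interaction was -0.62 (SE 0.36).

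The mRNAs encoded by the mitochondrial genome, subunits of the respiratory chain, had the highest median, 0.59 over the 7 of 13 that passed the filter, and none was above or below 0 in 4 of 4 isolates. Within isolates 1 to 4 the median was 0.46, -0.50, 0.82 and 1.13, with isolate 2 on the other side of 0, and without isolate 4 it was 0.36. mt-Co1 was at 2288, 2152, 2532 and 4340 CPM in GFP, 1928, 1960, 2127 and 2231 CPM in Cre, 2687, 3292, 3661 and 3347 CPM in GFP_TGFB and 2996, 2483, 5395 and 3473 CPM in Cre_TGFB. The highest libraries were GFP of isolate 4 and Cre_TGFB of isolate 3, and the interaction was 0.60 (95% interval -0.04 to 1.23). In the same isolates the interferon-stimulated genes had medians of -0.50, -0.37, -1.21 and -0.77, and the part of this shift in their values was not tested.

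**Figure D5:**
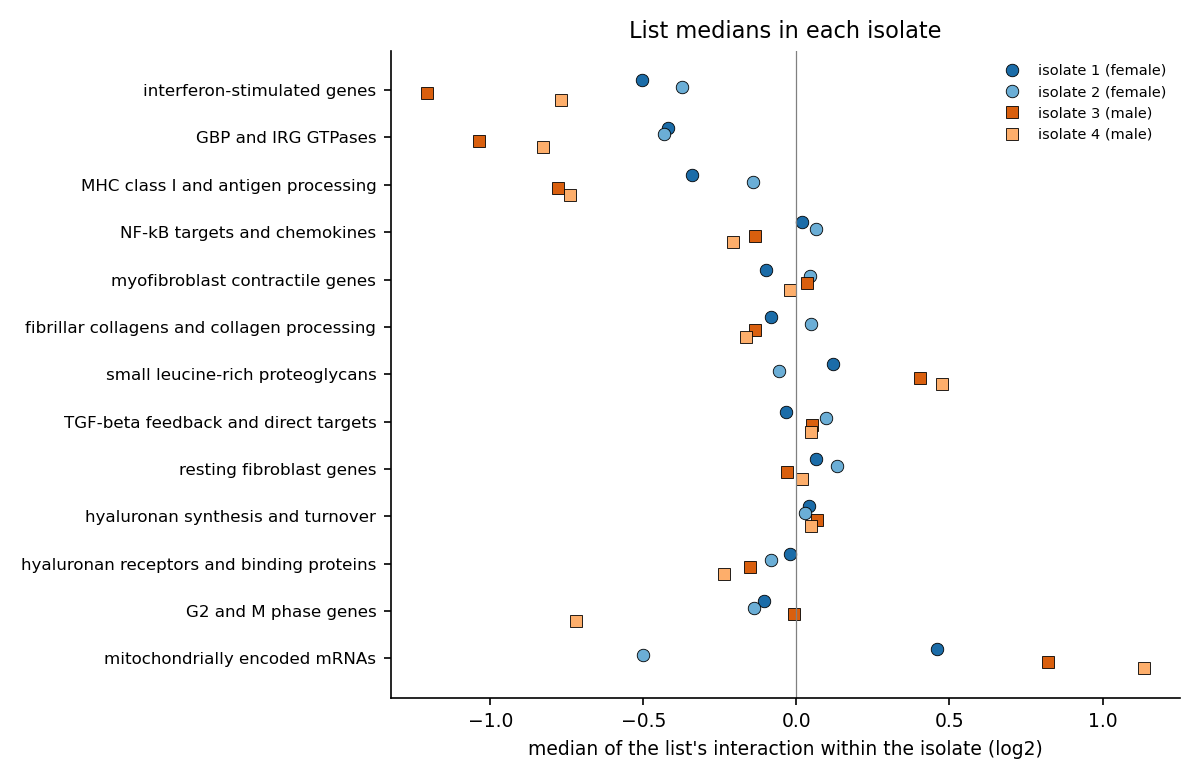
Median of the interaction within each isolate on the log2 scale (x axis) for 13 gene lists (y axis), with circles for the 2 female isolates and squares for the 2 male ones. The 3 interferon-related lists are below 0 in all 4 isolates, the mitochondrially encoded mRNAs are below 0 in isolate 2 alone, and the G2 and M phase genes lie furthest from 0 in isolate 4.

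Of the remaining lists, cholesterol synthesis and sterol regulation had a median of 0.09 with 8 of 24 genes above 0 and 1 below 0 in 4 of 4 isolates. Glycolysis genes had -0.15 with 7 of 23 below 0, stress and unfolded protein response genes -0.09 with 6 of 28 below 0, and neither had a member above 0 in 4 of 4. Lysosome genes had -0.11 with 5 of 30 below 0 and 2 above, and S phase genes -0.08 with 5 of 33 below 0 and none above. The p53 targets, matricellular genes and matrix proteases had medians of 0.01, 0.01 and -0.01, and the 14 tested neighbours of Hyal2 on its chromosome -0.06. The marker lists of endothelial, mesothelial, cardiomyocyte, pericyte, Schwann and adipose cells had medians from -0.13 to 0.05, and the fibroblast markers 0.01. Several of these short lists rest on single isolates. The median of the 4 tested cardiomyocyte markers was -0.37 without isolate 2, and that of the 7 Schwann cell markers was 0.21 without isolate 1 and -0.36 without isolate 4.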

How the data were processed

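RNA was measured in 20 cultures, 16 of them used here. Per the labels' protocols, RNA came from a Trizol extraction with a DNase step, and the library kit was NEBNext Ultra II. Per Ensembl gene, the authors deposited whole-number read counts that carry no normalisation. The submitters' processing notes name HTSeq 0.10.0, FastQC 0.10.1 and build GRCm39. Which aligner, annotation release and strand setting served is not given in the sources used here, so overlapping genes and near-identical copies may share reads. Symbols were found for 52081 of 55414 identifiers in an annotation of build GRCm38, used for names only.

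Counts were tested with the robust quasi-likelihood test of edgeR 4.0.16 (R 4.3.3) in 1 fit of 20 libraries with 1 mean for each group, scaled by TMM factors and without a block. The function filterByExpr (minimum count 10, minimum total 15) kept 15624 of 31062 genes with any count. P-values were adjusted by Benjamini and Hochberg over all genes tested and called under 0.05. Values within isolates are differences of TMM log2 CPM with a prior count of 2, and intervals are at 95%. A floor of 3 counts is 0.0286 to 0.0777 CPM of the unscaled library total and covers counting error only. The test was checked on simulated counts drawn without an isolate effect, so that check does not cover the pairing of the libraries. Between replicates of a group, the chi-square of counts per degree of freedom was at least 8.14 in 24 pairs, so none was a repeat of another.

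Replicate numbers carry the same isolate name in every group of the labels, so they pair the libraries. Deviations from group means of same-numbered libraries correlated at 0.282 to 0.885 in 24 pairs, with a median of 0.597. The members, gene lists and tests were chosen with earlier results of these data known. The genes named were Hyal2, the 8 genes per direction with the smallest interaction p among those of at least 5 CPM with that sign in 4 of 4 isolates, up to 4 genes per list by smallest p, the hyaluronan synthesis genes, and any of a list's 4 genes with the most counts. 1 gene that this rule names is not reported here. Alternatives were RLE factors, no filter, 16 libraries only, a replicate block, DESeq2 1.42.0, limma-voom (limma 3.58.1), another scale or prior count, and leaving out isolates or libraries. Promoters were taken from RefSeq tables on GRCm38.p6.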

Additional observations from a re-analysis of the deposited data

Results flagged for a closer look

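A library or isolate was set apart where its gap to the nearest of the 4 values exceeded Dixon's 95% critical value as a share of their range. Of 186 sets of 4 values, 11 met this, and chance alone flags about 1 in 20. For the interaction of single genes these were Csf1 in isolate 2 (-0.0022, the others -0.241 to -0.214), Cemip2 in isolate 4 (0.034, the others 0.287 to 0.323), Cemip in isolate 1 (-0.0091, the others 0.203 to 0.212), Hyal3 in isolate 1 (0.852, the others -0.132 to 0.033) and Kif2c in isolate 4 (-1.62, the others -0.431 to -0.241). The median over S phase genes was -0.294 in isolate 4 and -0.036 to -0.018 in the others. Among levels, Hykk was at 8.94 CPM in GFP_TGFB of isolate 2 and at 10.2 CPM in Cre_TGFB of isolate 3. Trim23 was at 19.2 CPM in GFP of isolate 4, against 13.1 to 13.3 in the others. Ogfr was at 106 CPM in GFP of isolate 2, against 91.2 to 92.3. Ccl5 was at 0.205 CPM in Cre_TGFB of isolate 1, against 0.679 to 0.737.

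The median interaction of the NF-kB targets and chemokines was above 0 in both female isolates (0.018 and 0.063) and below 0 in both male isolates (-0.134 and -0.208), a difference of female minus male of 0.212. The difference was not tested.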

How the results depend on the processing

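The interaction called 0 genes in all 27 alternatives, among them RLE factors, no filter, 16 libraries, DESeq2, limma-voom, both paired fits (the replicate block in edgeR and limma on the within-isolate differences) and every fit without 1 isolate or library. The count of Cre calls without TGFB was 1, and 5 with no filter, 5 with the 16 libraries only, 37 with DESeq2, 0 with limma-voom, 42 with the replicate block, and 0 to 4 without 1 isolate or library. With TGFB the Cre count was 1, and 2 with the 16 libraries only, 2 with DESeq2, and 0 to 3 without 1 isolate or library. The replicate block changed no other count of adjusted calls over all genes by over 1.5 times, and raised the interaction count at an unadjusted p under 0.05 from 397 to 869. The causes were not tested. The counts of genes below and above 0 in 4 of 4 isolates, and the TGFB counts, stayed within 1.5 times. The interferon-stimulated genes below 0 in 4 of 4 isolates numbered 42, and 47 of 49 on the linear CPM scale, an alternative added after seeing the data. Of 719 recomputed interactions of 80 named genes, 712 kept direction and call. The 7 that turned belonged to 6 genes. Leaving out 1 isolate gave -0.055 to 0.0052 for Gusb, -0.071 to 0.438 for Hyal3, -0.010 to 0.101 for Uap1, -0.041 to 0.025 for Gfpt2, -0.081 to 0.062 for Gnpnat1 and -0.040 to 0.00964 for Pgm3. Of 210 recomputed list medians, 201 moved by less than the spread between isolates. The 9 that moved further include hyaluronan synthesis and turnover, in each fit without 1 isolate (0.038 to 0.164) and at 5 CPM or more (0.052), against 0.112. Genes of under 1 CPM, such as Has3 and Hyal3, are limited by counting error.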
